A study of Caenorhabditis elegans with 15 samples.

Results

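The S441L allele of eff-1 was compared with wild type (WT) animals grown in parallel with it, across every gene with enough reads to test. The comparison takes 6 of the 15 libraries of the series, 3 of S441L and 3 of the WT group of the same experiment, which is called WT batch 1 and, below, simply WT. Libraries were assigned to genotype and experiment by their labels. Each library is a polyA RNA library from whole, starved larvae of the first stage (L1) that had hatched from bleached embryos and arrested in buffer without food, and the 3 replicates of a group were biological replicates from individual plates. S441L larvae were of strain WH171, which carries eff-1(oj55) together with jcIs1, a transgene array that holds rol-6(su1006), a GFP fusion of ajm-1 and unc-29(+). WT larvae were N2, which has neither the allele nor the array. The allele was isolated after mutagenesis, is temperature sensitive, and is held to reduce eff-1 function only in part. The strain may therefore carry other mutations, and effects of the allele, the array and the background cannot be told apart in this design. P183L (eff-1(hy21), also a mutagenesis allele, in strain BP76, listed with jcIs1) was grown beside S441L and shares its WT libraries. P37Stop (stop codons placed in eff-1 by CRISPR) came from a second experiment with WT libraries of its own, WT batch 2. The P37Stop background held an ajm-1::GFP transgene, which the paper lists with unc-119(+), and a dpy-7 promoter reporter. Both alleles enter below only where S441L was set against them.

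Between the experiments and strains, some libraries stood apart in genes that transgenes carry. On the scale of all 15 libraries, rol-6, the collagen gene of jcIs1, had 412 to 445 CPM in S441L and 1.41, 1.52 and 2.06 CPM in P183L, against 0.405 to 0.603 CPM in WT batch 1, and unc-29 had 179.9 to 183.1 CPM in S441L and 18.4 to 21.9 CPM in P183L, against 12.7 to 13.4 CPM in WT batch 1. The P183L libraries thus did not show the array level of the S441L libraries, although BP76 is listed with the same array. unc-119, a neuronal gene often used as a transgene rescue marker, had 1122, 1071 and 992 CPM in P37Stop and 810.1, 889 and 833 CPM in WT batch 2, but 24.4 to 25.4 CPM in S441L and 27.5 to 28.8 CPM in WT batch 1. ajm-1 had 4109 to 4193 CPM in S441L, 1022 to 1049 CPM in P183L and 2504 to 2614 CPM in P37Stop, with 2080 to 2149 CPM in WT batch 2 and 733 to 762 CPM in WT batch 1. WT batch 2 therefore stood with P37Stop and apart from WT batch 1 in unc-119 and ajm-1, the genes of the ajm-1::GFP transgene in the P37Stop background. The paper lists the same transgene for a WT strain that it imaged for AJM-1::GFP, and names its WT as N2. Whether the WT batch 2 animals carried it was not tested. The part of this difference in any comparison that uses WT batch 2 was not tested either.

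EFF-1 is a fusogen, a membrane protein that fuses cells when it is present on both of the touching membranes. In C. elegans it joins most of the epidermal cells that form the large body syncytium hyp7, and loss of its function leaves these cells single. The epidermis secretes the sheath that covers the embryo and then the collagen cuticle of each larval stage, and in a starved L1 larva the postembryonic divisions, the molt and most growth are held back. The codon of the serine named in S441L is shared by 2 annotated isoforms. It lies in exon 7 of 8 coding exons, at chr II: 8348390 to 8348392 on the plus strand of WBcel235 (the assembly also called ce11), within the gene body at 8346684 to 8350563. The table of counts does not show the base change itself, so the genotype was taken from the labels.

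Total counts ran from 42569335 to 45714297 in the S441L libraries and from 35858225 to 44870027 in the WT libraries. Of the counts, 22.4 to 23.0% in S441L and 26.1 to 27.8% in WT fell on the 100 most abundant genes, and TMM scaling factors were 1.06 to 1.08 in S441L and 0.91 to 0.96 in WT. Scaling therefore moved with genotype: over all genes tested, the median change was 0.025 on the log2 scale after TMM and 0.21 with total counts alone. Libraries of 1 group always differed by more than counting noise (chi-square divided by its degrees of freedom was 5.26 to 5.77 in S441L and 7.74 to 19.2 in WT). CPM below are TMM-normalized and scaled to library size, and compare 1 gene between libraries. TPM are per exon length, are not TMM-adjusted, and are used where genes are added up or set beside each other.

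Transcripts of eff-1 were present in both groups at similar levels. The gene had 29.8, 30.3 and 33.1 CPM in S441L, against 28.7, 24.4 and 27.6 CPM in WT, and the groups did not overlap. The difference was small (log2 fold change 0.20, SE 0.0660, edgeR adjusted p = 0.0159) and did not reach the fold threshold of a differentially expressed gene (DEG), which required a change of more than 0.5 on the log2 scale in either direction beside an adjusted p under 0.05. Expression of aff-1, which encodes the other fusogen of the species, was higher at 4.21, 5.19 and 5.65 CPM in S441L, against 3.48, 3.05 and 3.73 CPM in WT (log2 fold change 0.55, SE 0.151, edgeR adjusted p = 0.00634). Its change lay close to the threshold, and it was no longer called without S441L replicate 3 (0.46) or without WT replicate 2 (0.47). On the chromosome, the neighbours of eff-1 did not move as a block. C26D10.6 had a log2 fold change of 0.14 and C26D10.4 one of -0.41, neither called, whereas the collagen gene col-77 rose, with 115 ± 6.18 CPM in S441L and 21.4 ± 2.77 CPM in WT (2.43; SD, n = 3 each).

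The 3 genes of the array marked the strain. rol-6, a cuticle collagen whose su1006 form makes worms roll, had 416, 429.9 and 397 CPM in S441L, against 0.568, 0.519 and 0.381 CPM in WT. unc-29, a subunit of the muscle acetylcholine receptor, had 176, 174 and 177 CPM in S441L, against 12.6, 11.9 and 12.3 CPM in WT. ajm-1, a protein of the apical junctions of epithelia, had 4054, 3988 and 3969 CPM in S441L, against 690.2, 704 and 716 CPM in WT. All S441L libraries lay far above all WT libraries for the 3 genes (log2 fold changes of 9.73, 3.83 and 2.51). Since these counts mix array and chromosomal copies, they were set aside from every count of a gene list below. The flanks of rol-6 and ajm-1 did not share the rise: of 8 neighbours, only idpb-4 rose (0.98), and F47E1.4 (-0.99), F47E1.1 (-0.88) and B0563.6 (-0.79) beside ajm-1 fell.

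The flanks of unc-29 did share it. On chromosome I, 6 adjacent genes from 8876319 to 8920504, with unc-29 among them, were all several-fold higher in S441L. vps-13, which encodes a lipid transfer protein, had 2972, 2920 and 2889 CPM in S441L, against 425, 434 and 443 CPM in WT. tgs-1, a trimethylguanosine synthase, had 622, 623 and 632 CPM in S441L, against 100.4, 102 and 102 CPM in WT. F55H12.4 had 478, 502 and 489 CPM in S441L, against 32.9, 29.8 and 30.4 CPM in WT. For these 3 genes every S441L library stood above every WT library by a wide margin (log2 fold changes of 2.75, 2.62 and 3.98). F55H12.3, at the left end, averaged 284 ± 3.52 CPM in S441L and 50.2 ± 4.94 CPM in WT (2.50), and T08G11.2, at the right end, averaged 12.9 ± 0.310 CPM in S441L and 0.162 ± 0.0529 CPM in WT (6.27). The next tested genes outward, snf-2 (0.82) and T08G11.3 (0.48; called without S441L replicate 3 at 0.53 or WT replicate 2 at 0.57), were not DEGs. In the other alleles these genes did not rise together: the log2 fold change of vps-13 was 2.75 in S441L, -2.32 in P183L and -0.24 in P37Stop, and that of tgs-1 was 2.62 in S441L, -1.38 in P183L and -0.05 in P37Stop. Whether the array carries these neighbours was not tested, and counts without a genome sequence of the strain cannot tell added copies from higher transcription.

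**Figure D1:**
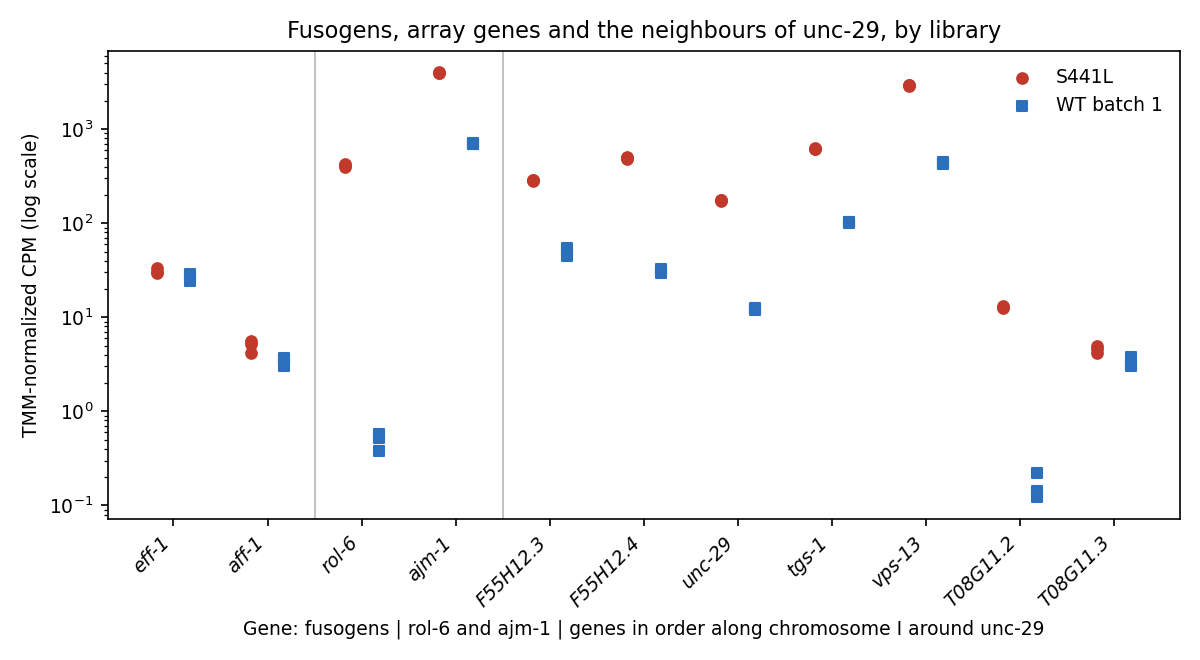
TMM-normalized CPM on a log axis for each S441L library (red circles) and each WT batch 1 library (blue squares). The fusogens eff-1 and aff-1 lie close together in the 2 groups, rol-6, unc-29 and ajm-1 lie far apart, and the genes from F55H12.3 to T08G11.2 are raised with unc-29, while T08G11.3 beyond them is not called.

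Over all genes, S441L larvae had more upregulated than downregulated DEGs. Of 15685 genes tested, 3795 (24.2%) were upregulated and 2475 (15.8%) were downregulated by edgeR's quasi-likelihood test, and with total counts in place of TMM the split was 4862 against 1603, that is 75.2% upregulated rather than 60.5%. The median log2 fold change of upregulated DEGs was 1.16, and 659 of them exceeded 2. Downregulated DEGs had a median of -0.87, and 179 of them were below -2. In mean level, 1566 upregulated and 1502 downregulated DEGs reached 10 CPM in their higher group. The S441L and WT libraries did not overlap for 3749 upregulated DEGs (98.8%) and 2423 downregulated DEGs (97.9%), where 70.4% of all genes tested did not overlap. Against all 6 WT libraries of both experiments, those of WT batch 2 standing apart in unc-119 and ajm-1 as given above, every S441L library lay above the range for 2583 upregulated DEGs (68.1%; 22.4% of all genes tested) and below it for 1596 downregulated DEGs (64.5%; 19.8% of all genes tested). In whole animals, fewer cells of a type and less RNA per cell cannot be told apart.

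**Figure D2:**
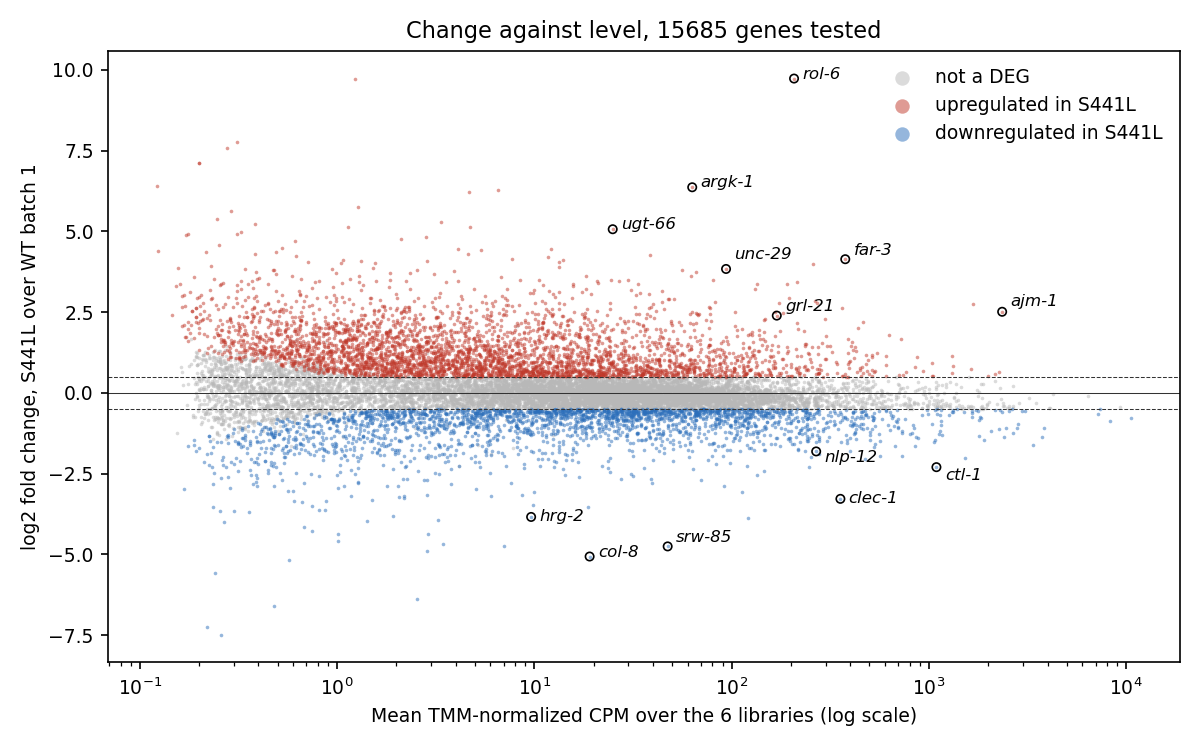
Each point is 1 of 15685 genes, with its mean TMM-normalized CPM over the 6 libraries on a log axis and its log2 fold change of S441L over WT batch 1. Upregulated DEGs are red, downregulated DEGs blue and other genes grey, and dashed lines mark 0.5 and -0.5. Circled genes include the array genes rol-6, unc-29 and ajm-1, argk-1 (6.36) at the top and col-8 (-5.07) at the bottom.

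Outside the array and its flanks, the largest rises among genes at 10 CPM or more were led by argk-1, ugt-66 and col-180. argk-1, which encodes an arginine kinase that buffers ATP, had 127, 124 and 124 CPM in S441L, against 1.78, 1.22 and 1.498 CPM in WT (log2 fold change 6.36, SE 0.0809, edgeR adjusted p = 1.50e-14). ugt-66, a UDP-glucuronosyltransferase, had 50.2, 44.8 and 50.6 CPM in S441L, against 1.26, 1.43 and 1.64 CPM in WT (log2 fold change 5.06, SE 0.0927, edgeR adjusted p = 3.30e-13). far-3, a secreted protein that binds fatty acids and retinol, had 724, 702 and 715 CPM in S441L, against 40.8, 43.4 and 37.8 CPM in WT (log2 fold change 4.14, SE 0.0543, edgeR adjusted p = 1.76e-14). The groups were fully apart for these 3 genes, and argk-1 was almost silent in WT. The collagen gene col-180 (4.45), the glucuronosyltransferase genes ugt-47 (4.21) and ugt-16 (4.12) and the C-type lectin genes clec-73 (4.16) and clec-74 (3.62) followed. So did the small secreted peptide genes fipr-22 (3.75) and fipr-23 (3.49) with C37A5.5 (3.91), which lies in the same cluster. F48C1.9 (4.27), K10H10.4 (3.81), F59A6.10 (3.63), C04C11.25 (3.58) and F14D7.6 (3.50) complete the coding genes among the 20 largest, beside F21C10.9 (4.04), whose reads may be shared with the overlapping F21C10.10. The list also held the pseudogene WBGene00009047 (4.42). In the other alleles the log2 fold change of argk-1 was 6.36 in S441L, 1.16 in P183L and 0.52 in P37Stop, and that of ugt-66 was 5.06 in S441L, -0.38 in P183L and 0.45 in P37Stop.

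Measured by the amount of transcript, the 12 largest rises outside the array and its flanks were led by far-3 and col-117. far-3 gained 1413 TPM, and the collagen genes col-117, col-94, col-144 and col-167 gained 1398, 1228, 1026 and 952 TPM. The transthyretin-related genes ttr-15 and ttr-17 gained 991 and 948 TPM. sod-1, a copper/zinc superoxide dismutase, had 752, 791 and 751 CPM in S441L, against 326, 322 and 325 CPM in WT (1.24), and act-3, an actin gene, had a log2 fold change of 0.59 with a gain of 1031 TPM. F41F3.3 gained 1041 TPM (1.76), the non-coding RNA gene Y53F4B.45 gained 935 TPM (1.65), and ram-2 gained 916 TPM (0.61). The change of col-117 lay close to the threshold, and col-117 was no longer called without S441L replicate 2 (0.50), without WT replicate 1 (0.46) or without WT replicate 3 (0.47). On the scale of all 15 libraries, col-117 had 2268 to 2538 CPM in S441L and 3093 to 4325 CPM in WT batch 2. There col-144, act-3 and ram-2 also lay below WT batch 2, and col-94 overlapped it. far-3, F41F3.3, ttr-15, ttr-17, sod-1, col-167 and Y53F4B.45 lay above all WT libraries of both experiments.

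The largest falls among genes at 10 CPM or more were led by col-8 and srw-85. col-8, a collagen, had 1.34, 1.24 and 0.717 CPM in S441L, against 32.1, 44.2 and 34.9 CPM in WT (log2 fold change -5.07, SE 0.168, edgeR adjusted p = 3.68e-11), though its reads may be shared with the overlapping lgc-38. srw-85, a chemoreceptor gene, had 3.91, 3.27 and 2.98 CPM in S441L, against 91.9, 95.3 and 87.4 CPM in WT (log2 fold change -4.75, SE 0.0777, edgeR adjusted p = 1.31e-13). clec-1, a C-type lectin, had 66.6, 64.5 and 68.1 CPM in S441L, against 646, 655 and 638 CPM in WT (log2 fold change -3.28, SE 0.0420, edgeR adjusted p = 1.50e-14). For all 3 genes, each S441L library was far below each WT library. hrg-2 (-3.84), a heme-responsive gene of the epidermis, pud-4 (-3.54), nspc-20 (-3.46), clec-61 (-3.18) and the collagens col-181 (-3.08) and col-153 (-2.80) were among the next. F40E3.5 (-3.86), R11G1.11 (-4.74), txt-4 (-3.07), C03G6.17 (-2.88), W02D7.11 (-2.69), ndnf-1 (-2.67), T10C6.15 (-2.67) and T02B11.3 (-2.57) also belonged to the 20 largest falls. F32H2.6, T11B7.5 and Y53C12B.7 did too, and each overlaps another gene (tba-6, alp-1 and nos-3).

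By amount of transcript, the 12 largest falls were led by ant-1.1 and eef-1A.1. ant-1.1, the adenine nucleotide translocator of mitochondria, fell by 3534 TPM and had 5858, 5854 and 5765 CPM in S441L, against 10300, 10950 and 10890 CPM in WT (-0.88). eef-1A.1, a translation elongation factor, fell by 3137 TPM (-0.77), and the long non-coding RNA tts-1 fell by 2795 TPM (-1.08). The muscle myosin light chain mlc-2 (-1.12), the glycolytic aldolase aldo-2 (-1.25), the saposin-like spp-5 (-1.18) and the intestinal aspartyl protease asp-1 (-0.52) fell as well, and asp-1 was no longer called without S441L replicate 3 (-0.48) or without WT replicate 2 (-0.47). F53A9.8 fell by 2189 TPM (-1.51), the ribosomal protein gene rpl-41.2 fell by 1562 TPM (-0.68), Y82E9BR.3 fell by 1549 TPM (-0.85) and brp-1 fell by 1530 TPM (-1.09). On the scale of all 15 libraries, brp-1 had 2501 to 2601 CPM in S441L and 2160 to 2217 CPM in WT batch 2. There rpl-41.2 and asp-1 also lay above WT batch 2, F53A9.8 overlapped it, and the rest of the 12 lay below it. col-42, a cuticle collagen, had 1020, 1125 and 901 CPM in S441L, against 2394, 3460 and 2469 CPM in WT (log2 fold change -1.45, SE 0.119, edgeR adjusted p = 2.35e-07). The S441L libraries lay below all WT libraries for col-42, and its log2 fold change was -1.45 in S441L, -10.01 in P183L and -0.86 in P37Stop.

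Most genes of the hedgehog-related family rose. These genes encode secreted proteins of the epidermis and other epithelia (the grd, grl, wrt and related genes), several of them components of the cuticle or precuticle. Of 41 tested, 31 rose and 1 fell, the median being 1.19, where 24.2% of all genes rose and their median was 0.025. Another 18 of the 59 members had too few reads to test. The summed level was 2015 to 2071 TPM in S441L, against 418 to 440 TPM in WT. grl-21 had 281, 296 and 277 CPM in S441L, against 57.0, 54.4 and 51.7 CPM in WT (log2 fold change 2.39, SE 0.0492, edgeR adjusted p = 7.42e-13). grl-4 had 233, 256 and 238 CPM in S441L, against 51.2, 50.7 and 50.5 CPM in WT (log2 fold change 2.25, SE 0.0476, edgeR adjusted p = 9.12e-13). grd-13 had 86.3, 95.1 and 88.5 CPM in S441L, against 12.1, 11.96 and 12.3 CPM in WT (log2 fold change 2.89, SE 0.0538, edgeR adjusted p = 3.30e-13). No S441L library overlapped a WT library for these 3 genes. Against the 6 WT libraries of both experiments, S441L lay above the range for 28 of 41 and below it for 2. The shares over all genes tested were 22.4% and 19.8%. On the scale of all 15 libraries, grd-13 had 89.3 to 98.6 CPM in S441L and 77.5 to 84.8 CPM in WT batch 2. All 12 tested grd genes rose, with grd-14 (2.93) and grd-6 (2.68) at the top, and 12 of 18 grl genes rose, including grl-16 (2.64). The member that fell was grl-20 (-2.29), which overlaps another gene and averaged 0.0772 CPM in S441L and 0.390 CPM in WT. wrt-10 (-0.08) and qua-1 (-0.35) were not called. With the filter of above 1 TPM in every library, 20 members rose and 0 fell. The patched-related genes, which encode membrane proteins of the kind that receives hedgehog in other animals, had 17 rises and 1 fall among 26 tested. ptr-20 (2.16), ptr-16 (1.82) and ptr-8 (1.54) rose, ptr-3 (-0.78) fell, and ptc-1 itself was at 0.11 and not called.

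Cuticlins, the zona pellucida domain proteins of the cuticle, also moved mostly upward, with 21 rises and 3 falls among 32 tested. cut-3, a cuticlin of the L1 alae, had 282, 277 and 281 CPM in S441L, against 72.0, 75.9 and 74.2 CPM in WT (log2 fold change 1.92, SE 0.0406, edgeR adjusted p = 9.12e-13). cut-2 had 282, 296 and 258 CPM in S441L, against 101, 112 and 100.3 CPM in WT (log2 fold change 1.42, SE 0.0583, edgeR adjusted p = 2.53e-10). Of the 3 falls, only cutl-21 (-0.62) was also called without S441L replicate 1 or without WT replicate 1, and with total counts 0 fell. Summed over the list, cuticlins had 979.8 to 1013 TPM in S441L, against 343 to 345 TPM in WT.

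Collagens named by col- numbers changed in both directions and by wide margins. Of 108 tested, 56 rose and 25 fell (median 0.71), leaving 27 that did not pass. The rises included col-180, col-13 (4.10), col-126 (3.77), col-130 (3.49) and col-157 (3.47). Besides col-8, the deepest falls were col-138 (-5.17), col-143 (-4.38), col-19 (-3.61) and col-50 (-3.23), which averaged 0.0279, 0.262, 0.119 and 0.395 CPM in S441L. The furrow collagens, which form the annular furrows of the cuticle, were not called: dpy-10 (0.26), dpy-2 (0.22), dpy-7 (0.091) and dpy-3 (0.061). Among collagens that shape the body, sqt-3 had 602, 647 and 574 CPM in S441L, against 237, 279 and 231 CPM in WT (log2 fold change 1.29, SE 0.0678, edgeR adjusted p = 2.79e-09), and dpy-14 (0.75) and dpy-17 (0.73) rose too. dpy-5 fell (-3.27) at 0.409 ± 0.147 CPM in S441L and 3.97 ± 0.818 CPM in WT (SD, n = 3 each).

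The precuticle sheath of the embryo was represented by 12 genes, of which 7 rose and 1 fell (median 0.72). lpr-3, a lipocalin of the precuticle, had 52.4, 53.2 and 50.6 CPM in S441L, against 25.9, 25.5 and 28.2 CPM in WT (log2 fold change 0.97, SE 0.0508, edgeR adjusted p = 2.61e-09). noah-2 had 59.8, 57.1 and 59.6 CPM in S441L, against 35.1, 39.2 and 39.2 CPM in WT (log2 fold change 0.64, SE 0.0517, edgeR adjusted p = 2.08e-07), whereas its partner noah-1 was not called (0.16). ram-5 (1.45), egg-6 (1.10), dyf-7 (1.03), dex-1 (0.83) and let-4 (0.80) rose, and the mucin-like let-653 fell (-0.71). Molting genes gave 5 rises and 0 falls of 14, led by mlt-10 (1.12) and mlt-9 (0.99), while their regulator nhr-25 (-0.23) was not called. Of the collagen processing genes, doxa-1 (1.68), skpo-2 (1.67), tsp-15 (0.67) and the prolyl hydroxylase phy-2 (0.64) rose and the peroxidase mlt-7 (-0.87) fell, of 12 tested (2 falls without WT replicate 1). Astacin metalloproteases had 15 rises and 4 falls of 31. nas-38 (3.02) and nas-10 (2.44) rose and nas-32 (-1.08) fell. With the filter of above 1 TPM in every library 7 astacin genes rose, and without S441L replicate 1 the falls numbered 2.

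**Figure D3:**
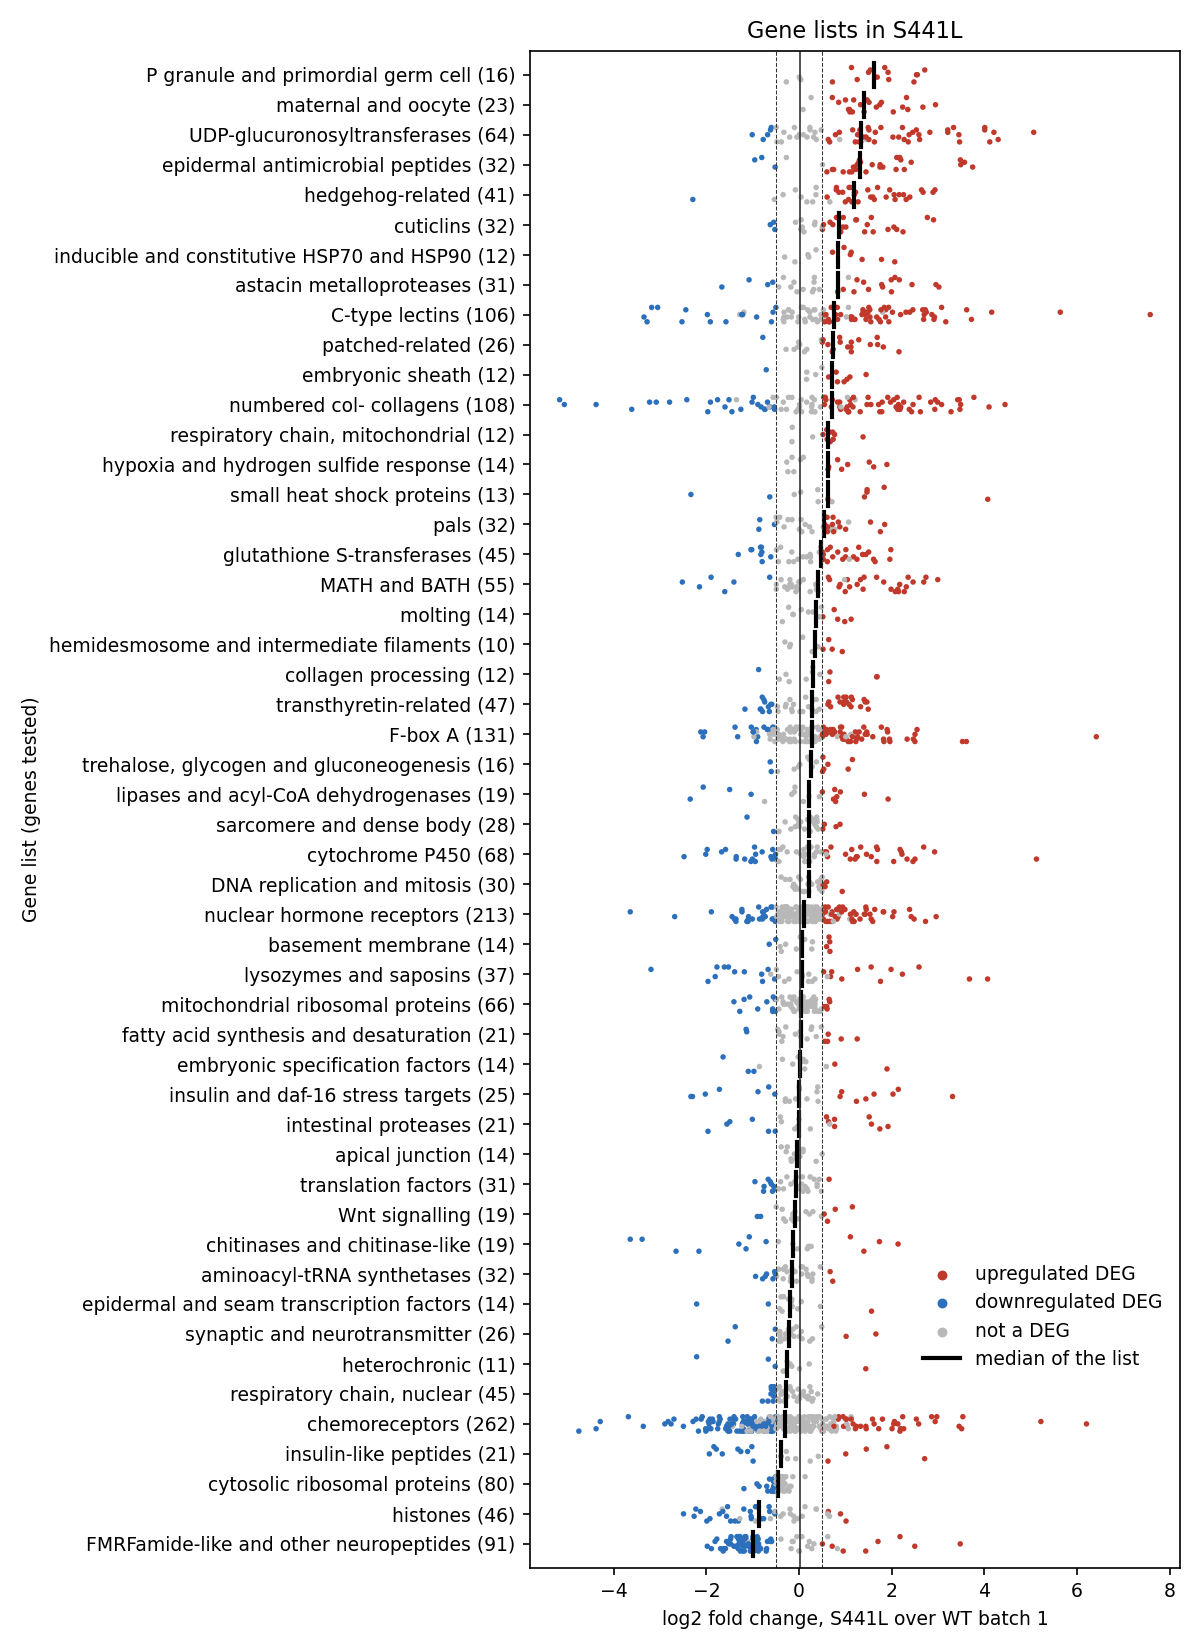
Log2 fold change of S441L over WT batch 1 for the tested members of each gene list with at least 10 genes tested, with the number tested in parentheses. Red and blue points are upregulated and downregulated DEGs, grey points are other genes, black bars are list medians, the thin line is the median of all genes and dashed lines mark 0.5 and -0.5. Lists run by median, with P granule and primordial germ cell genes at the top (1.61) and neuropeptides at the bottom (-1.0).

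Few regulators of epidermal fate, and no gene of the apical junctions between epidermal cells, were DEGs, whereas defence peptides of the epidermis rose in number. Among 14 transcription factors of epidermis and seam, bed-3 rose (1.56) and lin-29 (-2.21) and ceh-16 (-0.66) fell, a majority that total counts turned round (2 rises, 1 fall) and that was even without S441L replicate 1 (2 rises). elt-3, a GATA factor of the epidermis, had 94.5, 97.1 and 99.3 CPM in S441L, against 125, 116 and 125 CPM in WT (log2 fold change -0.33, SE 0.0449, edgeR adjusted p = 2.51e-05), which did not reach the fold threshold. elt-1 (-0.15), lin-26 (-0.15) and grh-1 (-0.42) were not called either. None of 14 apical junction genes was a DEG, with dlg-1 at -0.064 and hmr-1 at 0.086. Nearest to the threshold was hmp-1 (0.50; called without S441L replicate 1 at 0.50, S441L replicate 3 at 0.51 or WT replicate 1 at 0.52), and with total counts 2 of these genes rose. The hemidesmosome genes ifa-1 (0.93), ifa-3 (0.71), mua-6 (0.64) and vab-10 (0.52; not called without WT replicate 1 at 0.45) rose, of 10 tested.

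Epidermal antimicrobial peptide genes, which are induced by wounding, fungal infection and osmotic stress, rose in 27 of 32 tested and fell in 3 (median 1.31). nlp-29, the best known of them, had 228, 231 and 203 CPM in S441L, against 74.4, 107 and 63.0 CPM in WT (log2 fold change 1.44, SE 0.138, edgeR adjusted p = 1.04e-06). fipr-22 had 120.1, 131 and 119 CPM in S441L, against 9.24, 10.4 and 8.11 CPM in WT (log2 fold change 3.75, SE 0.0764, edgeR adjusted p = 6.75e-13). The S441L and WT libraries were apart for both. Of the fipr genes, 13 of 14 rose, with fipr-26 (3.48) and fipr-24 (2.42) among the highest, and nlp-28 was not called (-0.27). Of the falls, only fipr-1 (-0.96) was also called without S441L replicate 3 or without WT replicate 2. Many of these genes are tandem copies, between which the counting may have split reads.

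Maternal and germline transcripts were low in both groups but clearly higher in S441L. Of 23 maternal and oocyte genes tested, 21 rose and 0 fell (median 1.40), and their sum was 162 to 172 TPM in S441L, against 70.9 to 77.7 TPM in WT. puf-3, an RNA-binding regulator of oocytes and early embryos, had 3.97, 3.81 and 4.11 CPM in S441L, against 0.346, 0.793 and 0.737 CPM in WT (log2 fold change 2.67, SE 0.238, edgeR adjusted p = 5.07e-07). egg-2 (2.94) and egg-1 (2.23), sperm-receptor proteins of the egg, the yolk receptor rme-2 (2.32) and puf-11 (2.35) rose, as did pos-1 (1.10) at 25.3 ± 1.58 CPM in S441L and 11.8 ± 1.18 CPM in WT (SD, n = 3 each). mex-3 (0.086) and mei-1 (0.26) were not called. P granules are the RNA granules of germ cells and their precursors, and 13 of 16 genes for them and for primordial germ cells rose. prg-1, the Piwi protein of the germline, had 29.8, 31.4 and 31.4 CPM in S441L, against 6.08, 5.09 and 5.38 CPM in WT (log2 fold change 2.48, SE 0.0728, edgeR adjusted p = 1.31e-11). pgl-1 had 12.2, 13.3 and 12.03 CPM in S441L, against 1.73, 2.20 and 1.83 CPM in WT (log2 fold change 2.71, SE 0.127, edgeR adjusted p = 8.78e-10), and glh-1 had 19.0, 19.4 and 18.7 CPM in S441L, against 5.56, 6.16 and 6.02 CPM in WT (log2 fold change 1.69, SE 0.0761, edgeR adjusted p = 6.10e-10). However, prg-1 overlapped WT batch 2 on the scale of all 15 libraries, with 30.8 to 32.55 CPM in S441L and at least 30.9 CPM there. pgl-1 and glh-1 lay above WT batch 2 on that scale. S441L lay above all 6 WT libraries of both experiments for 20 of the 23 maternal genes and 12 of these 16 genes. nos-1 (2.55), glh-2 (2.53) and xnd-1 (1.94) rose, and csr-1 (-0.28) was not called. The 6 primordial germ cell markers, most of which also stand in that list, all rose and summed to 29.6 to 31.6 TPM in S441L, against 6.61 to 8.04 TPM in WT. With the filter of above 1 TPM in every library, 11 maternal and 4 P granule genes rose, because that filter left out the low genes.

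Few cell division genes were called. Of 30 replication and mitosis genes, 4 rose and 0 fell, with air-1 (0.93), plk-1 (0.60) and knl-1 (0.56) among the rises, and with total counts 12 rose. The kinase inhibitor cki-1 (-0.081), pcn-1 (-0.12) and cyd-1 (-0.30) were not called. Among 14 embryonic specification factors, 2 rose, among them pes-1 (1.90), and 3 fell, among them med-2 (-1.64) and pal-1 (-1.10), which total counts changed to 3 rises and 2 falls. A single rise was left without S441L replicate 2 or without WT replicate 3. skn-1 (0.14) and elt-7 (0.12) were not called. Of the 6 Hox genes, egl-5 (-0.70) and nob-1 (-0.74) fell and lin-39 (-0.12) and mab-5 (-0.38) were not called. In the heterochronic pathway, which times larval fates, lin-42 rose (1.44), lin-28 (-0.66) and daf-12 (-0.52; not called without WT replicate 3 at -0.48) fell beside lin-29, and lin-14 (-0.26) and lin-41 (-0.32) were not called. Of 19 Wnt pathway genes, mom-2 (1.15), cwn-2 (0.78), mom-5 (0.61) and sys-1 (0.54; not called without WT replicate 2 at 0.44 or WT replicate 3 at 0.48) rose and pry-1 (-0.90) and lin-44 (-0.83) fell.

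Histone transcripts were lower. Of 46 tested, 24 fell and 3 rose (5 rose without any 1 of the WT libraries; median -0.86), with 3439 to 3536 TPM in S441L, against 4335 to 4497 TPM in WT in sum. his-37 had 142, 140.4 and 131 CPM in S441L, against 278, 313 and 267 CPM in WT (log2 fold change -1.05, SE 0.0587, edgeR adjusted p = 4.91e-09), and his-71, a replacement H3 histone, had 206, 216 and 211 CPM in S441L, against 319.7, 326 and 338 CPM in WT (log2 fold change -0.64, SE 0.0404, edgeR adjusted p = 1.83e-08). The S441L libraries were below the WT libraries for both, and his-37 overlaps another gene. The replacement H3 gene his-72 was not called (-0.20), and his-74 (1.01) and the linker histones hil-4 (0.89) and hil-5 (0.63) rose. his-9 (-2.27) and its neighbours his-16, his-11 and his-25 fell in 1 run on chromosome II. Transcripts of the replication-dependent histones mostly lack a polyA tail, so polyA libraries hold only a part of them, and near-identical copies may share reads.

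Transcripts for the cytosolic ribosome shifted downward by a small margin. Of 80 ribosomal protein genes, 0 rose and 21 fell (median -0.45), with the median itself near the threshold, so that the number of falls ranged from 4 with total counts to 37 without WT replicate 1, with 33 without S441L replicate 2 and 35 without WT replicate 3. rpl-24.2 (-1.19), rla-2 (-0.91) and rpl-37 (-0.86) fell most, and rpl-6 (-0.41) and rps-23 (-0.45) missed the threshold. Together the ribosomal protein genes made up 203100 to 211200 TPM in S441L, against 235400 to 241600 TPM in WT. Translation factors had 1 rise, eif-3.C (0.65; 2 rises without S441L replicate 2), and 9 falls, among them eef-2 (-0.67) and eif-3.B (-0.95), and total counts turned this to 6 rises and 3 falls. Mitochondrial ribosomal proteins had 5 rises and 11 falls of 66, and 15 rises and 6 falls with total counts.

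The 2 genomes that encode the respiratory chain moved apart. Of 45 nuclear genes, 0 rose and 12 fell (median -0.28), including ucr-2.1 (-0.79), isp-1 (-0.67) and cox-4 (-0.61), and with total counts 1 rose and 1 fell. Of the 12 genes of the mitochondrial genome, 9 rose and 0 fell (median 0.63). COX1 had 2352, 1809 and 2003 CPM in S441L, against 1461, 868 and 1373 CPM in WT (log2 fold change 0.74, SE 0.150, edgeR adjusted p = 0.000804). ND5 had 524, 468 and 501 CPM in S441L, against 303, 291 and 285 CPM in WT (log2 fold change 0.77, SE 0.0473, edgeR adjusted p = 1.37e-08). The groups did not overlap for either gene. ND1 (0.60), CYTB (0.66; not called without WT replicate 2 at 0.42) and COX3 (0.52; not called without S441L replicate 1 at 0.39 or WT replicate 2 at 0.34) rose, and the other 3 genes were not called. However, every S441L library lay above all 6 WT libraries of both experiments for 0 of the 12 genes. On the scale of all 15 libraries, COX1 had 1874 to 2432 CPM in S441L and 5203 to 7067 CPM in WT batch 2. On that scale ND5 had 484.8 to 542.5 CPM in S441L and 1174 to 1487 CPM in WT batch 2. The list had 0 up and 12 down in P183L, and 0 up and 2 down in P37Stop, each against its own WT.

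Detoxification and stress genes were raised in several families. UDP-glucuronosyltransferases, which attach a sugar to small lipophilic molecules, had 41 rises and 5 falls among 64 tested (median 1.34), and their sum was 945 to 1008 TPM in S441L, against 485 to 529 TPM in WT. ugt-13 had 76.3, 76.4 and 80.4 CPM in S441L, against 10.6, 9.79 and 12.5 CPM in WT (log2 fold change 2.82, SE 0.0712, edgeR adjusted p = 3.49e-12). ugt-63 (4.30) and ugt-35 (4.01) joined ugt-66, ugt-47 and ugt-16 at the top, and ugt-59 (-1.01), ugt-23 (-0.77), ugt-46 (-0.68), ugt-60 (-0.62) and ugt-49 (-0.60) were the 5 that fell. However, ugt-35 lay below WT batch 2 on the scale of all 15 libraries, with 2.28 to 3.955 CPM in S441L and 10.4 to 18.05 CPM there. ugt-13, ugt-16, ugt-47, ugt-63 and ugt-66 lay above WT batch 2. Of the 64 genes, S441L lay above all 6 WT libraries for 33 and below them for 6. Glutathione S-transferases had 21 rises and 9 falls of 45. gst-4, a target of the oxidative stress factor SKN-1, had 474, 446 and 466 CPM in S441L, against 173, 173 and 164 CPM in WT (log2 fold change 1.44, SE 0.0422, edgeR adjusted p = 1.30e-11), whereas gst-20 (-1.31) and gst-35 (-1.04) fell. On the scale of all 15 libraries, gst-35 had 298 to 305 CPM in S441L and 98.6 to 116 CPM in WT batch 2. There gst-20 lay below WT batch 2. Cytochrome P450 genes split more evenly, with 26 rises and 20 falls of 68, and with the 1 TPM filter falls were in the majority (11 rises, 12 falls). cyp-14A4 (5.12) and cyp-35B2 (2.92) rose, and cyp-13A8 (-2.48) and cyp-32B1 (-1.36) fell.

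The hypoxia and hydrogen sulfide response had 8 rises and 0 falls of 14 tested. rhy-1, an acyltransferase-like membrane protein that restrains the hypoxia factor HIF-1, had 194, 199.6 and 205 CPM in S441L, against 57.5, 50.8 and 52.8 CPM in WT (log2 fold change 1.90, SE 0.0515, edgeR adjusted p = 6.85e-12). The cysteine synthase-like genes had like rises, and cysl-2 had 240.3, 255 and 236 CPM in S441L, against 111, 129.6 and 113 CPM in WT (log2 fold change 1.05, SE 0.0578, edgeR adjusted p = 4.47e-09). The S441L libraries were above the WT libraries for both. cysl-1 (1.61), cysl-3 (1.51), nhr-57 (0.92) and the sulfide oxidase sqrd-1 (0.83) rose, while hif-1 (-0.11), its hydroxylase egl-9 (0.03) and vhl-1 (-0.15) were not called. Heat shock proteins rose in part. Of 12 HSP70, HSP90 and related genes, 7 rose and 0 fell, with F44E5.4 (2.06) and its near-identical neighbour F44E5.5 (1.78) highest. hsp-1, the constitutive HSP70, had 1208, 1208 and 1162 CPM in S441L, against 529, 586 and 547 CPM in WT (log2 fold change 1.11, SE 0.0443, edgeR adjusted p = 1.95e-10), the mitochondrial chaperonin hsp-60 rose (1.36), and hsp-90 (0.19) and hsp-6 (-0.091) were not called. Compared with WT batch 2 on the scale of all 15 libraries, hsp-60 lay below it, with 102 to 108 CPM in S441L and 117 to 158 CPM there. F44E5.4, F44E5.5 and hsp-1 lay above WT batch 2. Of 13 small heat shock genes, 6 rose, including hsp-16.2 (1.47) and hsp-16.41 (1.84), and hsp-12.6 (-2.33) and hsp-12.3 (-0.63) fell. On the scale of all 15 libraries, hsp-12.3 had 48.2 to 51.5 CPM in S441L and 13.9 to 24.9 CPM in WT batch 2. There hsp-12.6 overlapped WT batch 2.

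Targets of the insulin pathway and its factor DAF-16, which is active in starved L1 larvae, divided evenly, with 8 rises and 7 falls of 25. ctl-1, a catalase, had 388, 360.3 and 358 CPM in S441L, against 1700, 2008 and 1744 CPM in WT (log2 fold change -2.30, SE 0.0616, edgeR adjusted p = 6.17e-12). ctl-2, the peroxisomal catalase beside it, had 605, 609 and 586 CPM in S441L, against 2342, 2625 and 2357 CPM in WT (log2 fold change -2.02, SE 0.0484, edgeR adjusted p = 2.39e-12). Both catalases fell to well below the WT libraries, in contrast to the rise of sod-1 and of sod-5 (2.03). Among genes that DAF-16 holds down, dod-17 (3.31), dod-24 (2.14) and dod-19 (1.62) rose. Insulin-like peptides had 5 rises and 9 falls of 21, with ins-20 (2.71) up and ins-17 (-1.79) and ins-18 (-1.02) down. On the scale of all 15 libraries, ins-18 had 31.55 to 33.4 CPM in S441L and 22.0 to 26.5 CPM in WT batch 2. There ins-17 lay below WT batch 2.

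Immune and intestinal families differed from one another. C-type lectins had 57 rises and 15 falls of 106 tested (median 0.76), and another 133 of the 239 genes had too few reads. clec-63, 1 of the 3 most abundant per length, had 591, 599 and 579 CPM in S441L, against 202, 232 and 216 CPM in WT (log2 fold change 1.44, SE 0.0494, edgeR adjusted p = 4.85e-11), and the clec-67 to clec-75 cluster on chromosome IV rose as a run of 9 genes with a median of 2.46. In WT batch 2, clec-63 had 730 to 1146 CPM on the scale of all 15 libraries, above its 599 to 620.5 CPM in S441L. Against the 6 WT libraries of both experiments, S441L lay above the range for 26 of 106 C-type lectin genes and below it for 11. Over all genes tested, 22.4% lay above and 19.8% below. Saposin-like and lysozyme genes had 12 rises and 12 falls of 37. spp-5 and spp-14 (-0.81), both abundant, fell, and lys-2 (2.59) and lys-6 (2.23) rose. Chitinase-like chil genes fell in 8 of 13, led by chil-5 (-3.65) and chil-15 (-3.39), and none rose, whereas the chitinases cht-5 (2.14) and cht-1 (1.11) rose. The pals genes, several of which respond to intracellular pathogens, had 13 rises and 3 falls of 32, with pals-23 (1.85) up. F-box A genes had 53 rises and 16 falls of 131, and MATH and BATH genes 25 rises and 6 falls of 55. Intestinal proteases split into 8 rises and 6 falls of 21: the cathepsin B-like cpr-4 (1.92) and cpr-9 (1.51) rose and cpr-6 (-1.50) and asp-14 (-1.56) fell. On the scale of all 15 libraries, asp-14 had 200 to 206 CPM in S441L and 104 to 123 CPM in WT batch 2. There cpr-6 lay below WT batch 2, cpr-9 lay above it and cpr-4 overlapped it. Transthyretin-related genes had 19 rises and 11 falls of 47, with 13020 to 13480 TPM in S441L, against 8404 to 9030 TPM in WT in sum.

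Most neuropeptide genes fell. Of 91 tested of 95, 68 fell and 8 rose (median -1.0), where 15.8% of all genes fell. Their sum was 8093 to 8138 TPM in S441L, against 14260 to 14730 TPM in WT. Of the flp genes, which encode FMRFamide-like peptides, 27 of 30 fell and 0 rose. flp-14 had 43.3, 42.8 and 43.2 CPM in S441L, against 135, 166 and 142 CPM in WT (log2 fold change -1.78, SE 0.0665, edgeR adjusted p = 1.05e-10). nlp-12, a cholecystokinin-like peptide gene, had 116, 126 and 115 CPM in S441L, against 393, 442 and 419.7 CPM in WT (log2 fold change -1.81, SE 0.0533, edgeR adjusted p = 1.32e-11). nlp-40, an intestinal peptide of the defecation rhythm, had 248, 252 and 246 CPM in S441L, against 569, 589.7 and 618 CPM in WT (log2 fold change -1.25, SE 0.0413, edgeR adjusted p = 3.57e-11). For these 3 genes every S441L library lay below every WT library. The fall extended to the enzymes that make mature peptides: egl-3, the proprotein convertase, had 551, 546 and 541 CPM in S441L, against 1531, 1628 and 1584 CPM in WT (log2 fold change -1.53, SE 0.0383, edgeR adjusted p = 3.16e-12), and egl-21, the carboxypeptidase E, had 472, 477 and 481 CPM in S441L, against 1203, 1271 and 1244 CPM in WT (log2 fold change -1.38, SE 0.0378, edgeR adjusted p = 7.30e-12). Of the 8 rises, nlp-24 (2.50), nlp-25 (3.48), nlp-26 (1.70), nlp-32 (2.18) and nlp-33 (1.44) belong with nlp-29 to a group of genes for glycine-rich peptides. nlp-24 had 168, 199.8 and 166 CPM in S441L, against 27.8, 39.7 and 27.5 CPM in WT. The other rises were nlp-36 (0.71), nlp-67 (0.95) and nlp-56 (0.50; not called without S441L replicate 2 at 0.48, S441L replicate 3 at 0.42 or WT replicate 3 at 0.38).

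Other neuronal genes were counted apart from the peptides. Of 26 synaptic and transmitter genes, 2 rose, cat-2 (1.66) and bas-1 (1.01), and 4 fell, egl-3, egl-21, ace-2 (-0.58) and unc-2 (-0.51). On the 15-library scale, cat-2 had 2.06 to 2.63 CPM in S441L and 4.36 to 6.34 CPM in WT batch 2. bas-1 had 30.9 to 33.8 CPM in S441L and 36.7 to 38.7 CPM in WT batch 2. The 4 genes that fell also lay below WT batch 2. S441L lay above all 6 WT libraries of both experiments for 0 of the 26 and below them for 16. Of the 8 pan-neuronal markers only egl-3 was a DEG, whereas rab-3 (0.29), snb-1 (-0.17), unc-64 (-0.29), unc-104 (-0.31), ric-4 (-0.11), sng-1 (-0.22) and unc-119 (-0.13) were not called. The marker sum was 934 to 976 TPM in S441L, against 1315 to 1377 TPM in WT, and egl-3 alone averaged 298 TPM in S441L and 730 TPM in WT. unc-31, which is needed to release dense core vesicles, was not called (-0.44). Chemoreceptor genes had 90 falls and 40 rises of 262 tested, but only 262 of 1307 genes had enough reads, and their sums overlapped (766 to 825 TPM in S441L, against 699 to 873 TPM in WT).

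**Figure D4:**
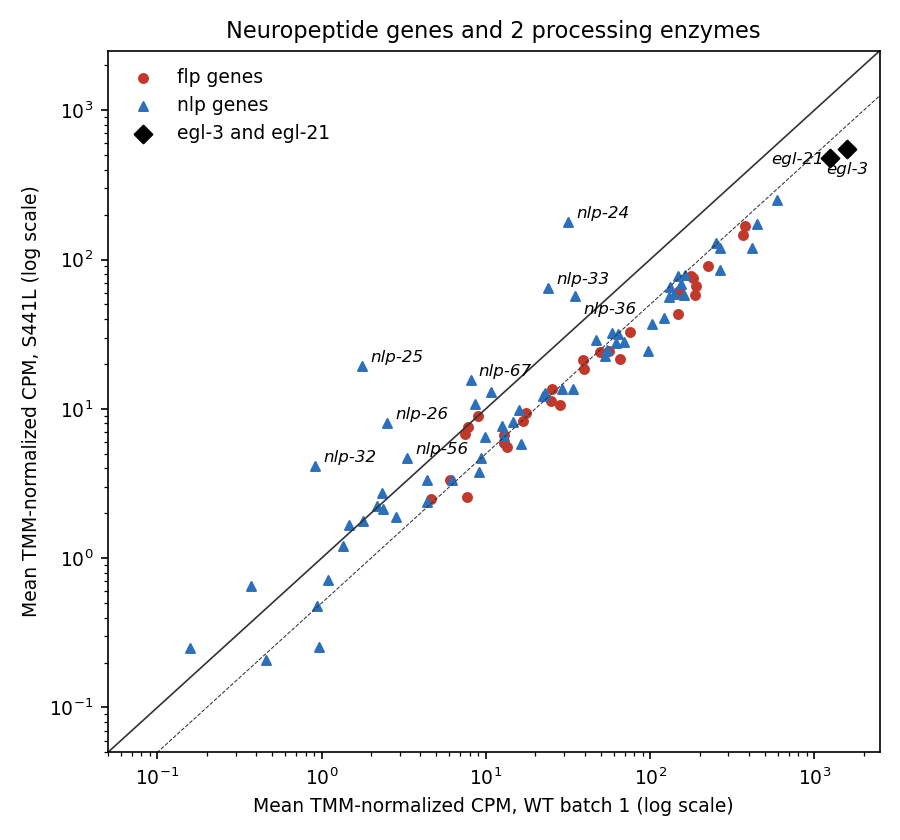
Mean TMM-normalized CPM of each tested neuropeptide gene in S441L (vertical, log axis) against WT batch 1 (horizontal, log axis), with n = 3 libraries each. flp genes are red circles, nlp genes blue triangles and the processing enzymes egl-3 and egl-21 black diamonds. The solid line marks equal levels and the dashed line an S441L level of 50% of WT, and most genes lie near the dashed line, with nlp-24, nlp-25, nlp-26, nlp-32 and nlp-33 above the solid one.

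Muscle and metabolic genes changed in both directions. Of 28 sarcomere genes, dim-1 (0.88), ttn-1 (0.80), unc-89 (0.54; not called without WT replicate 1 at 0.49) and atn-1 (0.51; not called without S441L replicate 1 at 0.50 or WT replicate 1 at 0.47) rose and mlc-2 and act-4 (-0.55) fell, and the majority turned to 2 rises and 3 falls without WT replicate 1. On the scale of all 15 libraries, atn-1 had 139 to 144.5 CPM in S441L and 238 to 276 CPM in WT batch 2. There dim-1, ttn-1 and unc-89 lay above WT batch 2, and mlc-2 and act-4 below it. The major body wall myosin, unc-54 (-0.44; called without WT replicate 1 at -0.51), was not a DEG. icl-1, the glyoxylate cycle enzyme that lets larvae make sugar from fat, had 1817, 1856 and 1768 CPM in S441L, against 778, 849 and 823 CPM in WT (log2 fold change 1.15, SE 0.0421, edgeR adjusted p = 8.46e-11), and the trehalose synthase tps-2 (0.62) rose while the glycogen synthase gsy-1 fell (-0.62). Rises in this list of 16 numbered 6, and 3 without WT replicate 3. Of 21 genes of fatty acid synthesis and desaturation tested, 5 rose and 2 fell. The fatty acid synthase fasn-1 rose (0.91), and the desaturases fat-3 (-1.13) and fat-4 (-1.14) fell. Of 19 lipase and acyl-CoA dehydrogenase genes tested, 8 rose and 4 fell. The lysosomal lipases lipl-5 (-2.35), lipl-3 (-2.07) and lipl-2 (-1.50) fell, whereas genes named acdh, for acyl-CoA dehydrogenases, had 7 rises and 0 falls of 11. Against the 6 WT libraries of both experiments, S441L lay above the range for only 2 of the 11 acdh genes and below it for 2. The shares over all genes tested were 22.4% and 19.8%. Beside argk-1, the arginine kinase W10C8.5 rose (1.32) and F46H5.3, by far the most abundant of the 5, fell (-1.33), so that the sum of the 5 was 1197 to 1212 TPM in S441L, against 2035 to 2170 TPM in WT. W10C8.5 lay below WT batch 2 on the scale of all 15 libraries, with 76.8 to 79.8 CPM in S441L and 105 to 126 CPM there. argk-1 lay above WT batch 2, and F46H5.3 below it.

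Markers of cell types were measured beside these lists. Pharynx markers rose in 7 of 8 and summed to 376 to 388 TPM in S441L, against 211 to 215 TPM in WT, with myo-2 at 0.60 and phat-1 at 1.81. Every S441L library lay above all 6 WT libraries of both experiments for only 1 of 8 pharynx and 1 of 8 intestinal markers. On the scale of all 15 libraries, myo-2 had 339 to 344 CPM in S441L and 1168 to 1457 CPM in WT batch 2. Intestinal markers had 3 rises, pept-1 (1.66), act-5 (1.17) and vha-6 (0.87), and 1 fall, mtl-2 (-0.89), with 2651 to 2680 TPM in S441L, against 1951 to 2080 TPM in WT, while elt-2 was not called (-0.03). Seam markers summed to 278 to 287 TPM in S441L, against 105 to 108 TPM in WT, with 2 rises and 1 fall among 6 tested (median 0.15). grd-10 (2.31) and grd-3 (1.88) rose and belong to the hedgehog-related family, and ceh-16 fell (-0.66), while bro-1 (0.46, but called without S441L replicate 1 at 0.55), egl-18 (-0.16) and elt-6 (-0.37) were not called. In TPM, grd-10 had 133 to 138 in S441L and 22.0 to 24.35 in WT, and grd-3 had 87.8 to 89.2 and 19.1 to 21.2. On the scale of all 15 libraries, grd-10 had 62.3 to 65.7 CPM in S441L and 61.0 to 67.2 CPM in WT batch 2. On that scale grd-3 had 44.15 to 46.4 CPM in S441L and 59.2 to 78.7 CPM in WT batch 2. Markers of the syncytial epidermis summed to 588 to 596 TPM in S441L, against 228 to 244 TPM in WT. Most of this gain was col-12, which alone had 383 to 393 TPM in S441L and 40.6 to 47.5 TPM in WT. Of 7 tested, col-12 (2.93) and wrt-2 (1.11) rose and col-19 (-3.61) and dpy-5 (-3.27) fell, with a median of -0.15. Glial markers divided, with daf-6 (1.69) and ptr-10 (0.62) up and vap-1 (-1.60), fig-1 (-1.25) and kcc-3 (-0.84) down, and coelomocyte and excretory markers had 4 rises and 1 fall of 6. The share of these cells in the animals was not measured, and its part in the list counts was not tested. Of these markers, 2 of the seam list and 1 of the syncytial epidermis list were at 0 in at least 1 of the 6 libraries.

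A few genes were seen in 1 group alone. C55C3.3 on chromosome IV had 110, 113 and 126 counts in S441L and 0 in all WT libraries, at least 94.2-fold higher when the 3 WT libraries together are set at a floor of 3 counts. Its neighbour C55C3.6 had 37, 17 and 35 counts in S441L and 0 in WT, at least 24.0-fold higher. C55C3.3 also had 224 to 275 counts in P183L and at most 19 in any P37Stop or WT batch 2 library. clec-206, fbxa-133, npax-4 and F59A7.11 had 10 to 34 counts in S441L and 0 in WT. In the other direction, the adjacent genes pudl-1 and pudl-2 on chromosome IV had 0 counts in S441L, against 16 to 26 and 15 to 18 counts in WT, at least 24.7-fold and 20.6-fold lower. These floors cover counting error only. P183L libraries had at most 2 counts of either gene, and P37Stop libraries had 0 to 49.

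DEGs also lay side by side. Choosing after the data were seen, runs of at least 4 adjacent tested protein-coding DEGs of 1 direction numbered 114 for rises (553 genes) and 27 for falls (120 genes), with the array genes left out. The longest, 16 genes on chromosome IV from 12921264 to 12995986, held dod-24, dod-22 and dod-17 and rose with a median of 1.52. The pud genes on chromosome V fell as a run of 5 (median -2.08), and nspc-12 to nspc-15 (median -5.54) and nspc-16 to nspc-20 with T24C2.5 (median -3.09) fell as runs on chromosome X. In runs that hold copies of 1 family, such as the nspc runs, reads may be shared between copies. Chromosome V had the highest share of rises among the nuclear chromosomes, 30.3% of 3366 genes tested, against 17.9% of 2352 on chromosome III. By name, among families with at least 10 genes tested, those with the highest shares of rises, ranked on these data, were grd (12 of 12), fipr (13 of 14), idpp (12 of 15), ptr (17 of 24), grl (12 of 18), pgp (9 of 14) and ugt (41 of 64). Those with the highest shares of falls were flp (27 of 30), irld (11 of 17), nlp (42 of 68), chil (8 of 13), his (22 of 37), sre (8 of 15) and skr (10 of 19).

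S441L was then set against the other 2 alleles, to ask which of its changes differed between them. Grown in parallel, S441L and P183L differed widely: of 6270 S441L DEGs, 4948 (78.9%) also differed between S441L and P183L, where 38.0% of 17180 genes tested were higher in S441L than in P183L and 34.2% lower. Of the upregulated DEGs, 1698 were higher in S441L than in P183L and 1281 were lower, and of the downregulated DEGs, 393 were lower and 1576 higher. Against P37Stop, each allele was first compared with the WT of its own experiment. The change in S441L differed from that in P37Stop for 3240 of the DEGs (51.7%), where the change was higher in S441L for 13.6% and lower for 17.1% of all genes tested. Among upregulated DEGs, 1650 rose more in S441L than in P37Stop and 214 less, and among downregulated DEGs, 1371 fell more in S441L and 5 less. A DEG was chosen for its change in S441L, which favours larger changes there.

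By family, the 3 alleles departed in different lists. Because S441L and P183L share WT libraries, their values are given side by side only. Of all genes tested, 24.2% rose and 15.8% fell in S441L, 36.7% rose and 40.6% fell in P183L, and 16.8% rose and 8.07% fell in P37Stop, each against its own WT. Neuropeptides had 8 up and 68 down in S441L, 1 up and 87 down in P183L, and 4 up and 2 down in P37Stop, and the change in S441L differed from that in P37Stop for 63 of 91 (4 higher and 59 lower in S441L). The log2 fold change of egl-3 was -1.53 in S441L, -4.90 in P183L and -0.40 in P37Stop. UDP-glucuronosyltransferases had 41 up and 5 down in S441L, 21 up and 22 down in P183L, and 13 up and 12 down in P37Stop (38 higher and 4 lower in S441L than in P37Stop). Histones had 3 up and 24 down in S441L, 27 up and 9 down in P183L, and 17 up and 2 down in P37Stop (1 higher and 27 lower in S441L than in P37Stop). Sheath genes had 7 up and 1 down in S441L, 12 up and 0 down in P183L, and 10 up and 0 down in P37Stop, and the furrow collagens 0 up and 0 down in S441L, 4 up and 0 down in P183L, and 4 up and 0 down in P37Stop. The change was lower in S441L than in P37Stop for 10 of 12 sheath genes and 4 of 4 furrow collagens, among the sheath genes let-653, which fell in S441L (-0.71). Hedgehog-related genes had 31 up and 1 down in S441L, 29 up and 8 down in P183L, and 26 up and 1 down in P37Stop (10 higher and 9 lower in S441L than in P37Stop). Antimicrobial peptide genes had 27 up and 3 down in S441L, 1 up and 29 down in P183L, and 17 up and 2 down in P37Stop, and replication and mitosis genes 4 up and 0 down in S441L, 28 up and 0 down in P183L, and 13 up and 1 down in P37Stop. Maternal genes had 21 up and 0 down in S441L, 23 up and 0 down in P183L, and 19 up and 0 down in P37Stop, and P granule genes 13 up and 0 down in S441L, 15 up and 1 down in P183L, and 7 up and 0 down in P37Stop.

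**Figure D5:**
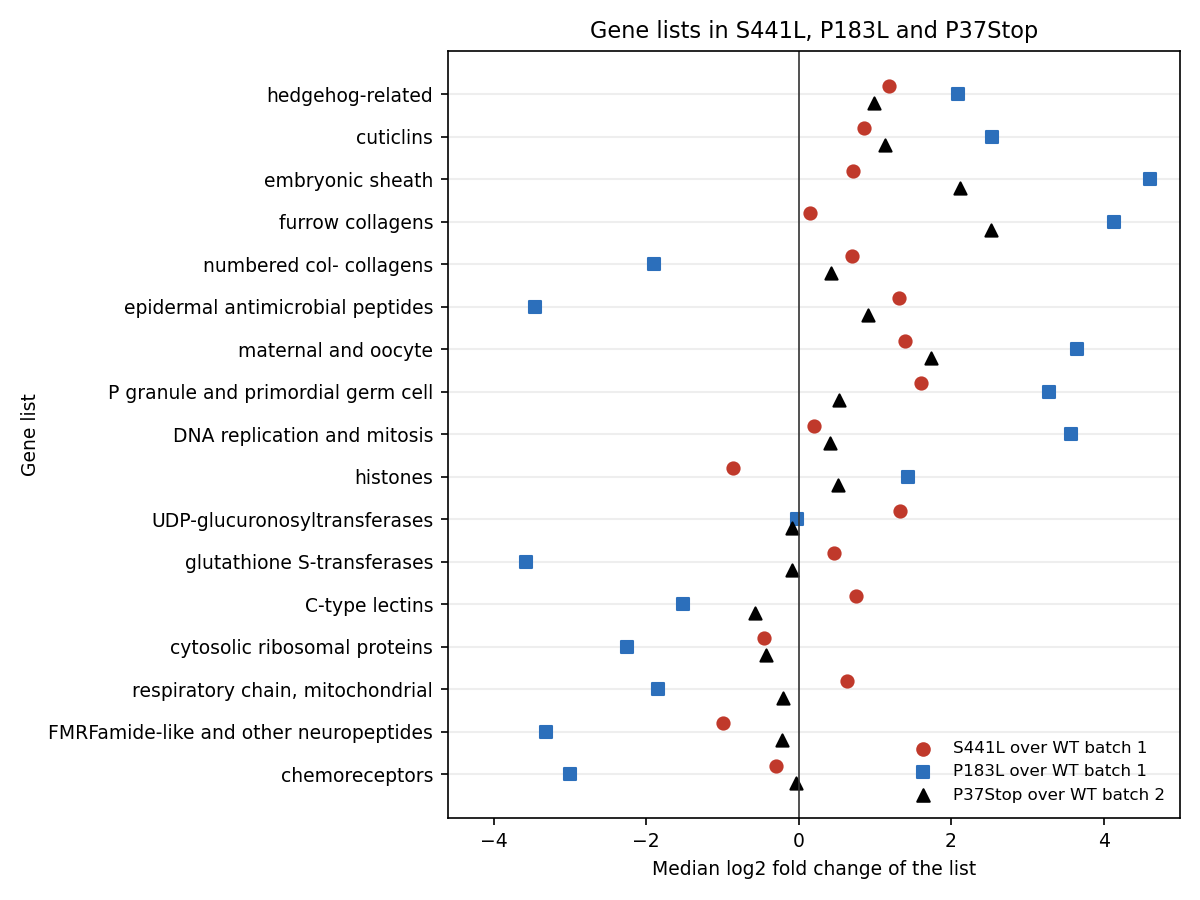
Median log2 fold change of each gene list in S441L (red circles) and P183L (blue squares) over WT batch 1 and in P37Stop (black triangles) over WT batch 2. Maternal genes lie to the right of 0 in all 3 (1.40 in S441L, 3.65 in P183L and 1.74 in P37Stop), histones lie to the left in S441L only (-0.86 in S441L, 1.44 in P183L and 0.52 in P37Stop), and glucuronosyltransferases lie to the right in S441L (1.34 in S441L, -0.016 in P183L and -0.081 in P37Stop).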

How the data were processed

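PolyA RNA from 3 S441L and 3 WT batch 1 samples was compared, with 9 further libraries (P183L, WT batch 2 and P37Stop) used where named. The authors filtered reads with fastp, aligned them with STAR and pseudoaligned them with Salmon to ce11, and used Picard for duplicates and HTSeq for counting. The deposited table gives expected counts, that is, estimated reads for each gene with no scaling or filter, and which of these routes made it is not given in the sources used here. Whether strand was used in counting is not given either, so reads of overlapping genes may be shared. It covers 46911 genes, with 3.7% of values not whole. A final row, which names no gene, has a single value, 42569335, equal to 100% of its column's total, and was left out.

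Counts were rounded. Ensembl release 115 gave exon lengths, names and positions for 46857 gene IDs and left 54 unmatched, and 223 protein-coding IDs with a shared name were named from RefSeq by position. Genes were kept by filterByExpr (minimum count 10), scaled by TMM and tested by edgeR's quasi-likelihood test on the 6 libraries, with Benjamini-Hochberg adjustment over 15685 genes. A DEG changed by more than 0.5 on the log2 scale, up or down, with an adjusted p under 0.05. Each SE was taken as the log2 fold change over the root of its F statistic. Contrasts with other alleles came from 1 fit of 15 libraries. R 4.3.3, edgeR 4.0.16, limma 3.58.1 and DESeq2 1.42.0 were used, and the scripts were tested on simulated data. P-values measure the spread between plates of 1 experiment.

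Gene lists were families by name and pathways by gene, described with no test of the list. Members and lists were chosen with earlier results of these data known. Genes were named by a rule: the 20 largest fold changes in each direction at 10 CPM or more without overlap of groups, the 12 largest TPM differences, list members (the 5 highest, 5 lowest and 3 most abundant of lists over 15 genes), the genes the study measured, and genes at 0 in 1 group. Of list members, only some that the rule allowed are named, and those, like other genes outside the rule, were picked after their values were seen. Alternatives were DESeq2, its size factors, total counts, no filter, above 1 TPM in every library, a fit of 9 libraries, leaving out each library, and a replicate block. Total counts of 35858225 to 45714297 per library leave most of the error of abundant genes to the spread between replicates.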

Additional observations from a re-analysis of the deposited data

Results flagged for a closer look

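The change in S441L over WT batch 1 differed from the change in P37Stop over WT batch 2 for 3240 of 6270 S441L DEGs, by a test of the difference itself in 1 edgeR fit of 15 libraries. For 285 genes that were upregulated in S441L and downregulated in P37Stop, and for 142 genes that were downregulated in S441L and upregulated in P37Stop, the difference was called as well. Allele, array, strain background and experiment all differ between the groups and cannot be told apart.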

How the results depend on the processing

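Upregulated DEGs numbered 3567 by DESeq2, 3656 with its size factors, 3957 without a filter, 2618 above 1 TPM in every library, 3876 in the fit of 9 libraries and 3657 to 3776 without each library in turn. Downregulated DEGs numbered 2597 by DESeq2, 2634 with its size factors, 2562 without a filter, 1855 above 1 TPM, 2634 in the fit of 9 libraries and 2422 to 2556 without each library. With total counts they numbered 1603, a scaling under which the median change over all genes was 0.21 on the log2 scale, against 0.025 with TMM. Replicate numbers did not pair the samples (correlations of -0.11 to -0.0039 between same-numbered libraries), and a fit with the replicate number as a block gave 3795 and 2457. Of 57 gene lists, 38 had more rises than falls, and 37 to 44 did under the alternatives. The majority turned with total counts for embryonic specification factors, epidermal and seam transcription factors, mitochondrial ribosomal proteins and translation factors, above 1 TPM for cytochrome P450 genes (11 rises and 12 falls, against 26 and 20), and without WT replicate 1 for sarcomere and dense body genes. The numbers of S441L DEGs that also differed from P183L (4822 to 4938) or changed differently from P37Stop (2949 to 3221) moved little under the alternatives run for these contrasts.

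Of 351 genes named, 29 lost their call under at least 1 alternative. With total counts the calls of ace-2 (-0.39), act-4 (-0.36), asp-1 (-0.33), ceh-16 (-0.48), cox-4 (-0.42), cutl-21 (-0.43), daf-12 (-0.33), eef-2 (-0.48), gsy-1 (-0.43), his-71 (-0.45), hsp-12.3 (-0.44), isp-1 (-0.48), lin-28 (-0.47), rpl-41.2 (-0.49), ugt-46 (-0.49), ugt-49 (-0.41), ugt-60 (-0.43) and unc-2 (-0.32) were lost, all fold changes being higher by construction. Above 1 TPM, which 295 named genes passed, act-4, asp-1, daf-12 and unc-2 lost theirs, and the cause was not tested. Among genes that were not called, the sign turned with total counts for cki-1 (0.11), dlg-1 (0.12), egl-18 (0.025), elt-1 (0.034), elt-2 (0.16), hif-1 (0.076), hsp-6 (0.10), lin-26 (0.039), lin-39 (0.073), pcn-1 (0.073), ric-4 (0.080), snb-1 (0.015), unc-119 (0.062), vhl-1 (0.037) and wrt-10 (0.11), above 1 TPM for elt-2 (0.021), and over the fits without 1 library for dpy-3 (-0.077 to 0.26), dpy-7 (-0.0048 to 0.16) and egl-9 (-0.032 to 0.058). DESeq2 gave 8 genes no adjusted p.

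Each genotype had 3 samples from 1 experiment, and the S441L strain carried the array and a separate background, so these cannot be told apart from the allele. Reads shared by close paralogs or overlapping genes, and non-polyadenylated RNA such as histone transcripts, limit those genes.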
